A study of Mus musculus with 2 samples.

Results

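The clustered protocadherins are 58 neighbouring genes on chromosome 18 whose symbols begin with Pcdha, Pcdhb or Pcdhg, out of 49997 genes in the RefSeq table of mm10. They comprise 14 alpha genes (36930285 to 37188897), 22 beta genes (37264998 to 37521419) and 22 gamma genes (37661775 to 37841873). Their methylation was read from the CpGs of the 1 Mb around the clusters that had at least 10 reads in both libraries, which gave 564 CpGs of 1030368 compared across the genome. The members were defined by name and position, and no methylation value set their membership. The set was chosen with earlier results of these data known.

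The data came from genomic DNA of a pair of mouse haploid embryonic stem cell lines, A129-2 on the 129Sv background and AOS-14 on the C57BL/6 background. Both lines were derived by cell sorting from AG-haploid embryos, a term the labels do not spell out, and no treatment or engineered allele is named for either. There was 1 library per line, so line and strain cannot be told apart and no difference has a replicate check. The tests below compare the reads of these libraries, and intervals cover counting error only. Summed reads of a window or run add the counts of its CpGs, so a read covering several CpGs is counted repeatedly. Neither the tests nor the intervals correct for this. At the 564 CpGs the median depth was 80.5 reads in A129-2 and 117 in AOS-14. The labelled cell type was not checked.

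Clustered protocadherins are cell surface adhesion proteins by which neurons tell their own branches from those of other cells. Each alpha and gamma gene contributes a variable exon with its own promoter, which is spliced to constant exons shared by the whole cluster, whereas a beta gene is a single exon. Promoter choice is largely stochastic in single neurons, depends on binding of CTCF and cohesin, and is linked to promoter methylation set by Dnmt3b in the early embryo. The C-type genes at the ends of the alpha and gamma clusters (Pcdhac1, Pcdhac2, Pcdhgc3, Pcdhgc4 and Pcdhgc5) follow a more regular expression pattern than the others.

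Methylation around the gene starts was low in both lines. The 236 CpGs within 1 kb of a start averaged 4.93% ± 5.93 (SD over CpGs) in A129-2 and 6.25% ± 7.40 in AOS-14, and the highest single CpG reached 26.8% and 29.4%. Levels were higher away from the starts. Means were 8.74% and 11.1% over 155 CpGs lying 1 to 2.5 kb after a start, where the variable exon continues, and 18.1% and 26.0% over 59 CpGs elsewhere between the exons. In the shared 3′ parts of the alpha and gamma clusters, 13 CpGs averaged 17.5% and 25.8%. The order of starts, exon body and sequence between exons was therefore alike in the 2 libraries, while each class had the lower mean in A129-2. Over all 463 CpGs inside the clusters the means were 8.23% and 10.9%, a ratio of 0.754, against 9.48% and 15.0% over all compared CpGs of the genome, a ratio of 0.632.

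Much of this variation followed the sequence context of a CpG. CpGs inside a CCGG motif, the site cut in reduced representation bisulfite sequencing, made up 30.9% of the start CpGs. At the starts, the 73 CCGG sites averaged 11.7% in A129-2 and 15.3% in AOS-14, whereas the 163 other CpGs averaged 1.89% and 2.19%. In the exon body the same split was 15.5% and 20% for 67 CCGG sites against 3.57% and 4.24% for 88 others. Between the exons the contexts were close, at 20.8% and 26.5% for 24 CCGG sites and 16.3% and 25.7% for 35 others. In these pooled values the gap between contexts was thus wide where methylation was low and narrow between the exons. The alpha cluster held 24 of the 35 other CpGs between exons. Its means were 25.3% and 26.3% in CCGG and 20.3% and 29.4% outside it. Between gamma exons, 7 CCGG sites averaged 16.9% and 27.3%, and 5 other CpGs 7.39% and 11.02%. Between beta exons, 7 CCGG sites averaged 18.03% and 25.9%, and 6 others 7.37% and 22.9%. The gap was therefore not narrow in gamma, nor in beta in A129-2. Of the 223 CCGG sites of the region, 131 were read on 1 strand only in each library, compared with 7 of the 341 other CpGs. Those 131 averaged 15.7% in A129-2 and 21.9% in AOS-14. The 26 CCGG sites read on both strands averaged 15.9% (plus) and 12.3% (minus) in A129-2. In AOS-14 they averaged 19.3% and 19.7%. For the 266 other CpGs on both strands the means were 4.08% and 3.51% in A129-2, and 5.26% and 5.62% in AOS-14. The same direction was seen genome-wide, where CCGG sites averaged 18.9% and 27.9% and other CpGs 4.74% and 8.49%. The part of strand coverage or library preparation in these levels was not tested.

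**Figure D1:**
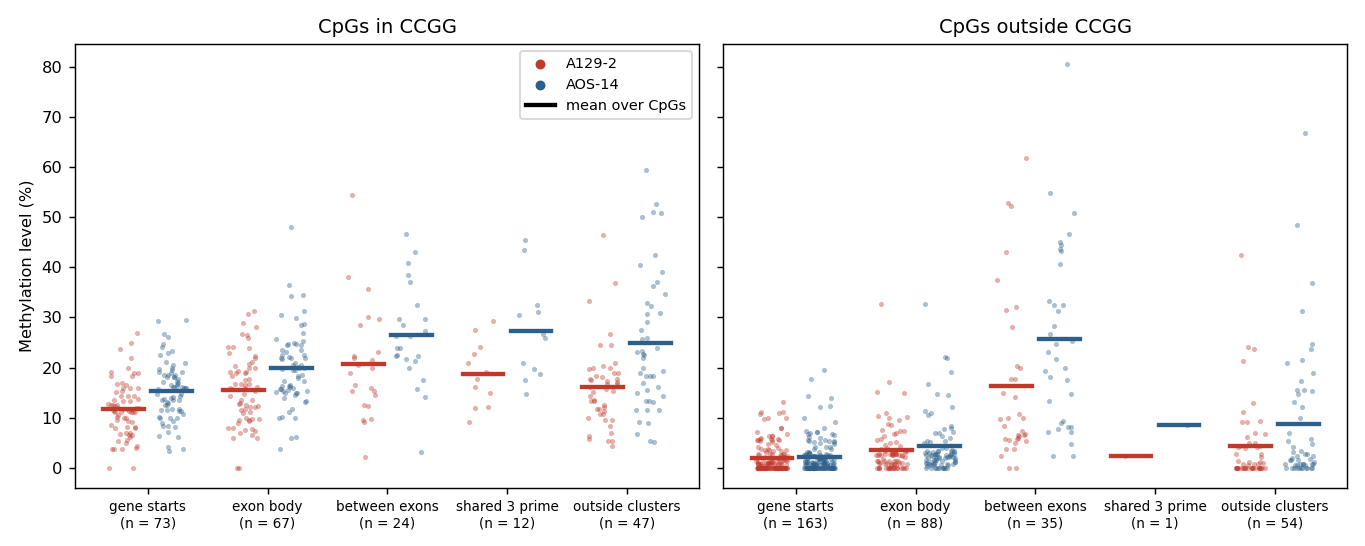
CpG methylation level (%) by position class in the protocadherin region, with CCGG sites on the left and all other CpGs on the right. Each point is 1 CpG in 1 library (spread sideways for visibility) and each bar is the mean. Outside CCGG, start CpGs average 1.89% and 2.19%, while CpGs between the exons average 16.3% and 25.7%.

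Outside CCGG, methylation was lowest next to the starts. In the 500 bp after a start, 93 CpGs of 17 genes averaged 1.0% in A129-2 and 1.24% in AOS-14. From 500 to 1000 bp the means were 3.98% and 4.2% (51 CpGs), and from 1000 to 1500 bp they were 4.62% and 5.12% (34 CpGs). They were 2.67% and 3.56% from 1500 to 2000 bp (35 CpGs). No compared CpG lay 500 to 1000 bp before a start, and 19 CpGs of 5 genes in the last 500 bp before it averaged 0.655% and 1.47%. The low levels therefore ran through the first part of the variable exon and not only over the start itself, and the upstream side rests on few genes.

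**Figure D2:**
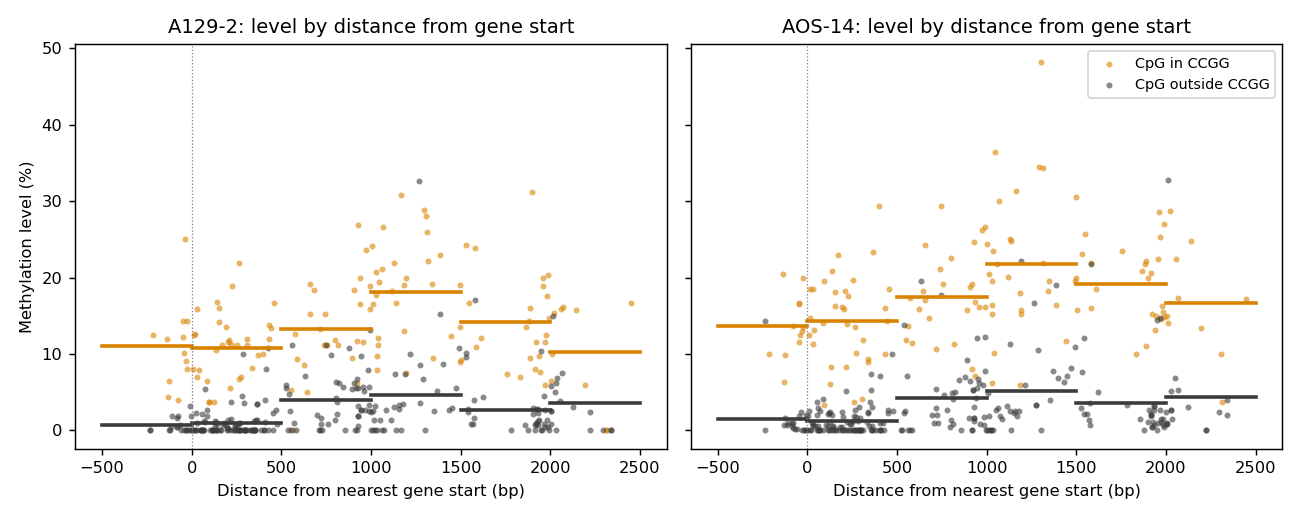
CpG methylation level (%) against distance from the nearest protocadherin gene start (bp), with A129-2 on the left and AOS-14 on the right. Points are CpGs within the clusters, in CCGG (orange) or not (grey), and lines are means per 500 bp. Outside CCGG the mean from 0 to 500 bp is 1.0% and 1.24%, and the mean of CCGG sites lies above that of the other CpGs in every bin shown.

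The variable exons were covered unevenly. At least 1 compared CpG lay within 1 kb of the start of 26 genes (6 alpha, 6 beta and 14 gamma), and 17 of these (3, 3 and 11) had the 5 CpGs needed for a test. A further 14 genes were read only in the exon body, and 18 in neither place, among them Pcdha5 to Pcdha7 and 11 beta genes. Over the 17 tested windows the median levels were 4.50% and 6.04%, and those of all 20243 tested gene-end windows of the genome were 3.27% and 4.06%. A129-2 had the lower mean in 13 of the 17 windows, compared with 86.2% of windows genome-wide.

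Of the 17 windows, 5 (29.4%) passed Fisher's exact test on summed reads (two-sided, Benjamini-Hochberg adjusted over the genome's windows) as lower in A129-2, when 40.3% of all windows did so. A single window passed as higher, when 0.998% of all windows did so. None differed by 25 points, which start means of at most 9.42% in A129-2 and 11.4% in AOS-14 could not reach. Of all windows, 0.79% passed with that size downward and 0.00988% upward. A test that compares the libraries CpG by CpG within a window, chosen after the data were seen, called 7 windows, or 41.2%, lower (43.1% of all) and 0 higher (0.795% of all). The 5 lower calls were shared by both tests. The share of protocadherin starts called lower was thus below or near that of the genome's windows, with small differences throughout.

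Among alpha genes, Pcdha8 was the called member. Its 9 CpGs averaged 3.32% ± 4.66 (SD over CpGs) in A129-2 and 5.30% ± 7.46 in AOS-14, with 22 of 700 and 60 of 1056 reads methylated (adjusted p = 0.0383, Fisher's exact test). Its 2 CCGG sites averaged 9.02% and 16.5%, and the 7 other CpGs 1.70% and 2.10%. The call was lost without CCGG (adjusted p = 0.380, Fisher's exact test) and with reads thinned to the shallower library (0.0851), and within 500 bp of the start the adjusted p was 0.0504. The C-type genes Pcdhac1 and Pcdhac2 were not called. Pcdhac1 had 4.61% and 6.88% over 15 CpGs (adjusted p = 0.271, Fisher's exact test), and Pcdhac2 had 2.52% and 2.15% over 14 CpGs (adjusted p = 0.321). At Pcdhac2 the 11 CpGs outside CCGG averaged 0.367% and 0.197%. The highest start level of any member was at Pcdha11, 19.1% and 24.2%, but it is a single CCGG site.

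None of the 3 tested beta starts was called in either direction. Pcdhb1, the first gene of its cluster, averaged 3.85% and 5.0% over 9 CpGs (adjusted p = 0.705, Fisher's exact test). Pcdhb2 averaged 5.07% and 7.59% over 5 CpGs (adjusted p = 0.214, the same exact test), and Pcdhb17 averaged 9.28% and 11.4% over 6 CpGs (adjusted p = 0.439). Pcdhb13 had the largest deficit in A129-2, 6.91% against 14.6%, over 4 CpGs, too few for the window test. With 3 CpGs allowed, its window was lower (adjusted p = 0.000851, Fisher's exact test). Its 3 CCGG sites read 12%, 3.95% and 9.85% in A129-2 and 20.5%, 13.6% and 23.4% in AOS-14, whereas its remaining CpG read 1.83% and 0.977%. The middle CCGG site, 78 bp before the start, was lower in the test of single CpGs (adjusted p = 0.0308, Fisher's exact test).

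**Figure D3:**
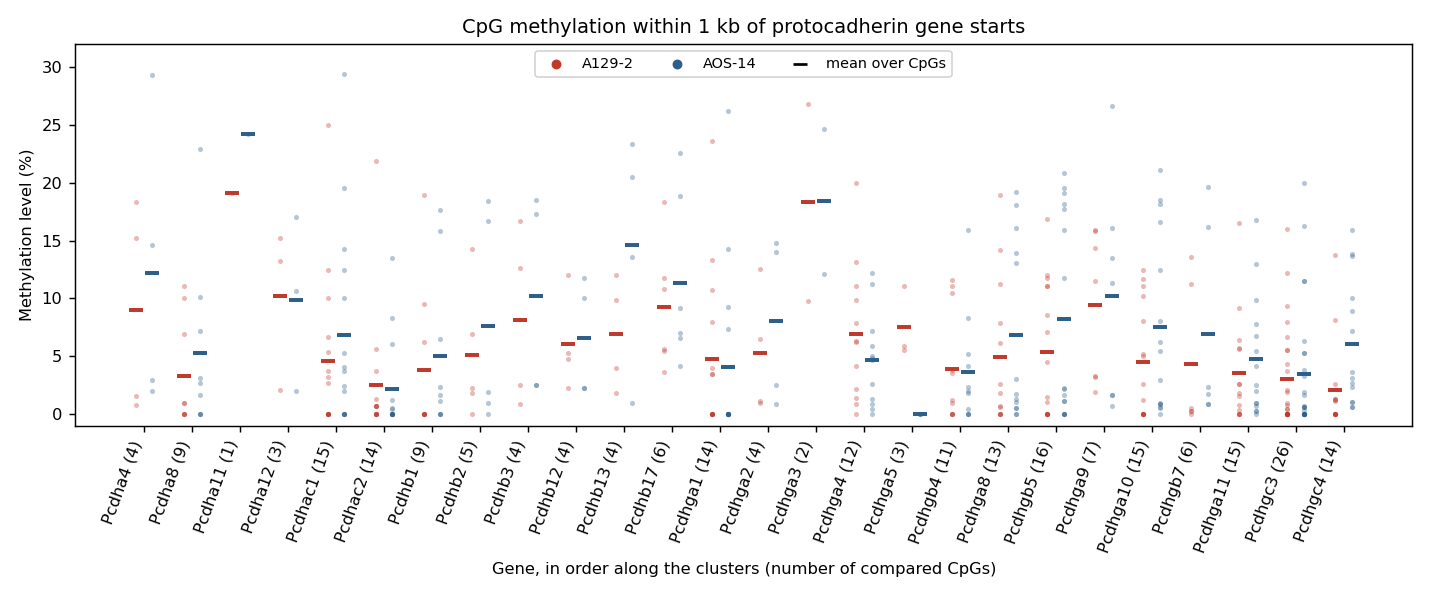
Methylation level (%) of each compared CpG within 1 kb of a protocadherin gene start, for the 26 genes with at least 1 such CpG, in order along the clusters with the number of CpGs in brackets. Points are single CpGs and bars their mean, in A129-2 (red) and AOS-14 (blue). All CpGs lie under 30%, and means of the genes with 5 or more CpGs lie between 2.11% and 9.42% in A129-2 and between 2.15% and 11.4% in AOS-14.

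The gamma cluster held the other calls. At Pcdhgb5 16 CpGs averaged 5.35% ± 5.79 in A129-2 and 8.21% ± 8.77 in AOS-14, with 82 of 1318 reads methylated (6.22%, exact 95% interval 4.98 to 7.66) against 170 of 1570 (10.8%, 9.33 to 12.5). It was lower in A129-2 with an adjusted p of 7.9e-05 by Fisher's exact test. The difference lay in the distal part of the window. The 4 CpGs from 625 to 757 bp after the start read 8.57%, 7.09%, 11.1% and 11.1% in A129-2 and 15.9%, 19.5%, 17.7% and 19.1% in AOS-14. Within 500 bp of the start, the 9 CpGs outside CCGG read 0% to 4.55% in A129-2 and 0% to 2.27% in AOS-14, and the gene was not called (adjusted p = 0.380, Fisher's exact test).

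Pcdhgc4, a C-type gene, had the lowest start level of the tested genes in A129-2. Its 14 CpGs averaged 2.11% ± 3.99 in A129-2 and 6.04% ± 5.48 in AOS-14, and 12 of the 14 were lower in A129-2 (20 of 870 reads against 81 of 1768, adjusted p = 0.0115, Fisher's exact test). Its CpGs outside CCGG averaged 0.689% and 4.19%, so the difference was not limited to the CCGG sites. At 540 bp after the start, A129-2 had 0 of 33 methylated reads, so that levels up to 9.09% remain possible, and AOS-14 had 9 of 65 (13.8%). At 556 bp the reads were 0 of 37 and 5 of 70. These CpGs were shallow, and with at least 50 reads required the gene was not called (difference -1.20 points, adjusted p = 0.390, Fisher's exact test). Nor was it called within 500 bp of the start (-1.86 points, adjusted p = 0.169, the same exact test).

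**Figure D4:**
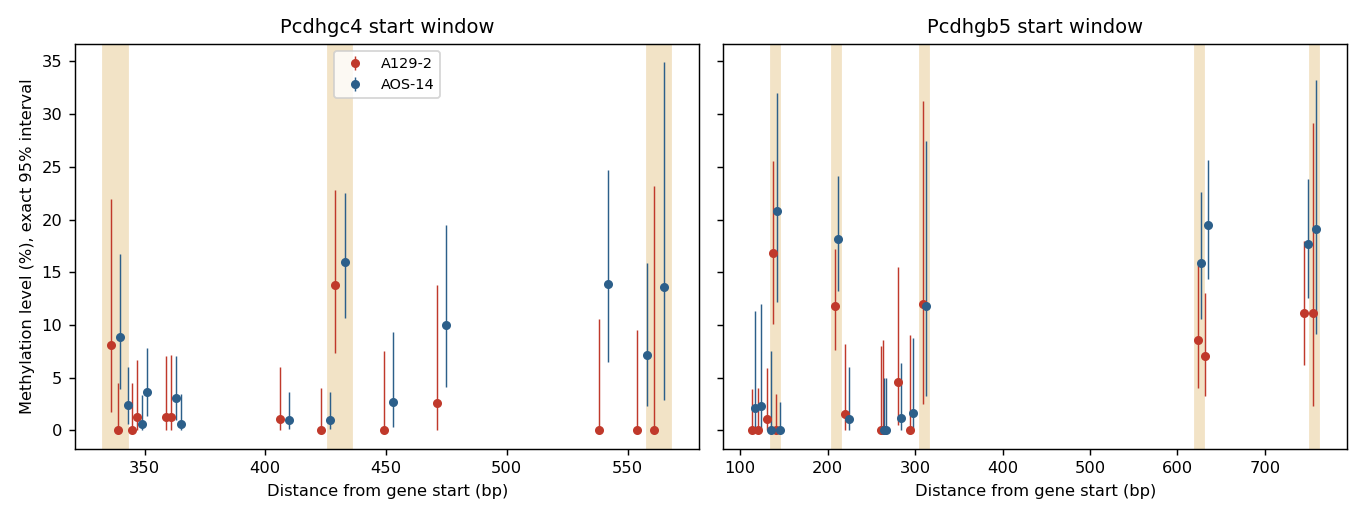
Methylation level (%) of each compared CpG against distance from the gene start (bp) for Pcdhgc4 and Pcdhgb5, in A129-2 (red) and AOS-14 (blue, drawn a few bp to the right). Vertical lines are exact 95% binomial intervals and shaded positions are CCGG sites. In both genes the libraries lie further apart after 500 bp than before it.

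Pcdhga8 averaged 4.93% and 6.82% over 13 CpGs and was lower in A129-2 (adjusted p = 0.0365, Fisher's exact test). The call was lost outside CCGG, where the means were 0.713% and 1.03%, and with windows of 0.5 kb (adjusted p = 0.270) or 2 kb (adjusted p = 0.142, Fisher's exact test). Pcdhgb7 averaged 4.31% and 6.94% over 6 CpGs, all 6 lower in A129-2 (adjusted p = 0.00594, Fisher's exact test). They span 63 bp, so the same reads may be counted repeatedly. Its 2 CCGG sites averaged 12.4% and 17.9%, and its 4 other CpGs, too few to test without CCGG, 0.256% and 1.45%. Beyond its window, 3 exon-body CpGs averaged 21.3% in A129-2 and 12.2% in AOS-14. With a window of 2 kb the mean over its CpGs was therefore 1.31 points higher in A129-2, while its summed reads, 84 of 2098 against 114 of 1998, were still lower (4.0% and 5.71%, adjusted p = 0.0273, Fisher's exact test). Pcdhga10 (4.50% and 7.56% over 15 CpGs) and Pcdhga11 (3.55% and 4.76% over 15 CpGs) were lower in the exact CpG-by-CpG test (adjusted p = 0.00643 and 0.0322), while summed reads gave adjusted p of 0.146 and 0.198. Summed reads also called Pcdhga10 lower once thinned to the shallower library (adjusted p = 0.00558, Fisher's exact test).

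Pcdhga4 was the window called higher in A129-2. Its 12 CpGs, all 763 to 992 bp after the start, averaged 6.93% ± 5.90 and 4.70% ± 4.02, with 92 of 1432 and 81 of 1938 reads methylated (adjusted p = 0.0139, Fisher's exact test). A129-2 was higher at 9 of the 12. The call was lost in the exact CpG-by-CpG test (adjusted p = 0.100) and when reads were thinned to the shallower library (adjusted p = 0.122). One of its CpGs, 777 bp after the start, was itself higher, at 14 of 142 reads against 6 of 229. At the 3 compared CpGs of Pcdhga5, AOS-14 had no methylated read (0 of 114, which allows up to 2.63%), while A129-2 had 4 of 53 (7.55%). Over all CpGs listed in its start window, shallow ones included, 6 of 80 reads were methylated in A129-2 and 3 of 166 in AOS-14. The 3 compared CpGs were too few for the window test and none passed alone. With 3 CpGs allowed the window was higher (adjusted p = 0.0241, Fisher's exact test). The 3 CpGs span 36 bp with a median of 18 reads in A129-2, so the 53 counts may include the same reads repeatedly.

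Among the gamma genes that were not called, Pcdhgc3, the member with the most start CpGs, averaged 3.0% and 3.45% over 26 CpGs (adjusted p = 0.873, Fisher's exact test), and its 12 exon-body CpGs averaged 4.92% and 4.59%. Pcdhga1 averaged 4.75% and 4.08% over 14 CpGs. Pcdhga3 had high levels, 18.3% and 18.4%, over 2 CpGs at 929 and 946 bp. Pcdhgc5, the last variable exon, had no compared CpG at its start. Its 2 exon-body CpGs averaged 15.2% and 30.7%, and the one 2013 bp after the start, outside CCGG, read 54 of 360 (15.0%) and 80 of 244 (32.8%), lower in A129-2 (adjusted p = 1.35e-05, Fisher's exact test).

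At single CpGs, 34 of the 564 in the region (6.03%) were lower in A129-2 by Fisher's exact test adjusted over the genome, when 12.9% of all compared CpGs were. Another 4 (0.709%) were higher, when 0.154% of all were. Inside the clusters the counts were 18 lower and 4 higher of 463, and the remaining 16 lower calls came from the 101 CpGs outside them. With a difference of at least 25 points, 6 CpGs were lower (4.08% of all) and 0 higher (0.0297% of all), and 5 of the 6 were outside the clusters. By context, 19 of 223 CCGG sites were lower (17.3% genome-wide) and 0 higher (0.0975%), and 15 of 341 other CpGs were lower (10.6%) and 4 higher (0.182%). The share of lower calls in the region was thus below that of the genome, and 16 of the 34 lay outside the clusters.

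The 4 higher CpGs were all outside CCGG and in or near variable exons. A pair 2003 and 2036 bp after the start of Pcdha3 read 5.77% and 6.92% in A129-2 and 0.775% and 1.5% in AOS-14, at 156 to 267 reads. The others were 1529 bp after the start of Pcdhgb1 (10.1% and 2.96%) and the Pcdhga4 site above. With reads thinned to the shallower library, 1 CpG of the region was called higher. Larger positive differences existed at shallow CpGs but did not pass the test. The largest, at position 37038134 between Pcdha12 and Pcdhac1, was 6 of 11 reads against 4 of 14. The next were position 37752886 after Pcdhgb7 (32.6% and 16.7%), 36980330 (38.1% and 22.2%) and 36980457 (30.0% and 15.8%) after Pcdha7, and 37807596 after Pcdhgc3 (19.0% and 5.88%).

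The largest deficit in A129-2 was at position 37046030, 25800 bp after the start of Pcdha12, with 0 of 18 reads in A129-2, which allows up to 16.7%, and 14 of 30 (46.7%) in AOS-14. The next 4 were all CCGG sites outside the clusters. These read 4.35% and 50% at 37652951 (23 and 10 reads), 15.2% and 52.6% at 37576165, 17.2% and 50.8% at 37228718, and 13.5% and 42.5% at 37601649. They lie in the gaps between the clusters and not at any variable exon.

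Sequence between the exons held the highest methylation in the clusters. A run of 14 CpGs from 37038062 to 37038262, 17.8 kb after the start of Pcdha12, averaged 24.3% in A129-2 (5.25 to 61.9) and 27.5% in AOS-14 (4.79 to 80.6). After Pcdha7, 7 CpGs from 36980330 to 36980457 averaged 25.3% and 24.5%. Another run of 7 CpGs after Pcdha12, from 37045933 to 37046063, averaged 21.4% and 37.0%, and 5 CpGs 16.2 kb before Pcdhac1 averaged 13.2% and 27.9%. The last of these runs were shallow. The run at 37045933 had 116 and 198 summed reads, with 1 CpG called lower and overlapping intervals (14.5 to 30.1 and 29.7 to 43.5). The run before Pcdhac1 had 106 and 175, with 0 CpGs called. Runs of the alpha cluster thus ranged from near-equal means to a gap of over 14 points, the wide gaps resting on few reads. No variable-exon start lies in them, and which regulatory elements they overlap is not given in the gene table.

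The shared 3′ parts, from 3 kb after the last variable-exon start to the gene end, hold the constant exons. In the alpha cluster 11 CpGs averaged 17.6% and 26.5%, and 3 of them, all among its 10 CCGG sites, were lower in A129-2, when 17.3% of CCGG sites genome-wide were. At 37163240 the reads were 30 of 124 and 91 of 209 (adjusted p = 0.00492, Fisher's exact test), and at 37163352 they were 33 of 120 and 72 of 158 (adjusted p = 0.0241). The gamma shared part had 2 compared CpGs, at 17% and 22.3% on average. Only 1 of the 13 shared CpGs is outside CCGG, at 2.38% and 8.47%, so this class is almost wholly a measure of CCGG sites.

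The ratio of the libraries varied among the clusters. Over all CpGs of a cluster, beta averaged 7.43% and 11.6% (90 CpGs, ratio 0.641), alpha 11.7% and 15.5% (115 CpGs, ratio 0.759) and gamma 6.96% and 8.67% (258 CpGs, ratio 0.802). Between beta exons, 12 of 13 CpGs were lower in A129-2, at 13.1% and 24.5% on average. These are descriptions of CpGs that share a library, and the differences among clusters were not tested.

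Shared sequence among beta genes could limit how well reads are placed, but only the spacing of CpGs was compared here. Pcdhb2, Pcdhb17 and Pcdhb18 held the same run of 5 compared CpGs, with steps of 34, 2, 47 and 7 bp, 1.9 kb after each start. In all 3 genes the outer sites are in CCGG and read 11.6% to 31.3% in A129-2 and 14.6% to 27.0% in AOS-14, whereas the inner 3 read 0% to 2.75% and 0.478% to 3.23%. The profile was thus repeated across the 3 genes, within 90 bp, and its outer and inner sites also differ in CCGG context. The 31.3%, at Pcdhb18, rests on 16 reads. How reads that match several copies were treated is not given in the sources used here, so levels of single beta genes, and of gamma genes with shared spacing such as Pcdhgb4 and Pcdhgb5, are uncertain.

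**Figure D5:**
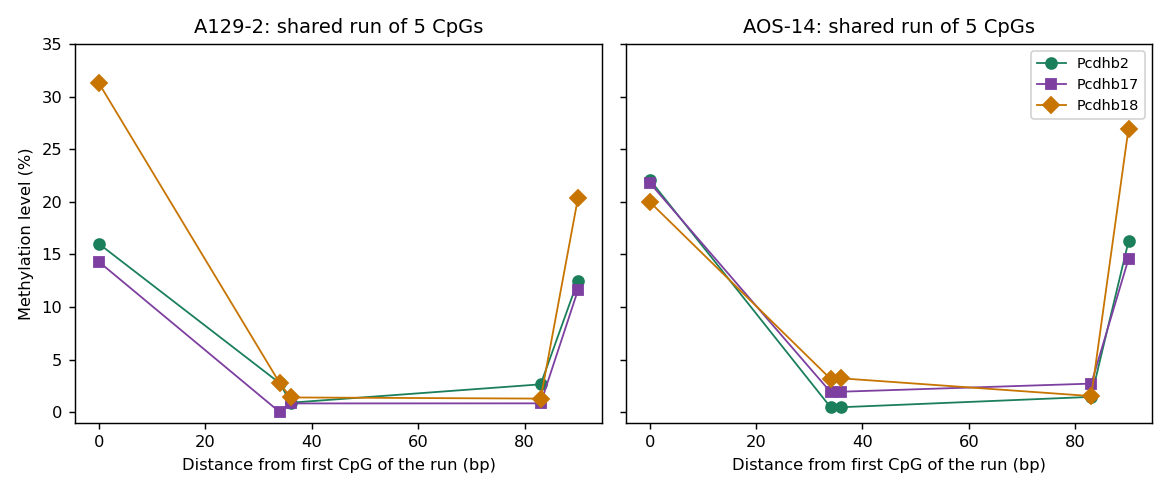
Methylation level (%) at the 5 CpGs that Pcdhb2, Pcdhb17 and Pcdhb18 share in the same spacing, against distance from the first of them (bp), with A129-2 on the left and AOS-14 on the right. The outer sites, in CCGG, lie at 11.6% or above, and the inner 3 lie under 4% in each gene and library.

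Tested ends of genes next to or related to the clusters had low levels. For Taf7 and Diaph1 the end with more listed CpGs was the one read, so a CpG-rich end was selected by rule. Taf7, a general transcription factor subunit in the gap between beta and gamma, averaged 2.51% and 2.85% over 30 CpGs at its upper end. Diaph1 is an actin regulator whose lower end, at 37843601, lies next to the gamma cluster. It was read at its upper end, at 37935622 and beyond the 1 Mb region, where 52 CpGs averaged 2.04% and 2.33%. Neither Taf7 nor Diaph1 was called. The rest of the beta to gamma gap was much higher, at 11.8% and 21.1% over 48 CpGs. Ends of Zmat2 and Slc25a2 were not resolved. Of 12 non-clustered protocadherins, which lie elsewhere and are not built from variable exons, 7 could be tested, with medians of 4.43% and 5.17%. Of these, 1 was lower in A129-2 (Pcdh20, 2.67% and 3.76%) and 0 higher, when 40.3% and 0.998% of all windows were. Of 12 protocadherin regulators, 7 were tested, with medians of 2.53% and 3.04%. Among them 3 of 7 were lower, near the 40.3% of all windows: Ctcf, the insulator protein (2.24% and 2.80%), Smchd1, a silencing factor (2.04% and 2.83%), and Dnmt3b, a de novo DNA methyltransferase (2.53% and 3.04%). The tested protocadherin starts, at 4.50% and 6.04%, lay in the same low range.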

How the data were processed

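Genomic DNA of 2 lines, with 1 library each, was captured with a mouse methylation panel, bisulfite-treated and sequenced, per the labels' protocols, while the series title names RRBS. BSMAP and mm10 are named in the submitters' processing notes. Neither trimming nor duplicate removal nor the handling of multiple alignments is named there. For each CpG the authors deposited, per the file headers, the counts of reads and of methylated reads and the level as a fraction. Levels were recomputed from the deposited counts, CpG by CpG, as percent. No filter for sequence differences between the strains was applied here. Read calls totalled 153035567 in A129-2 and 178315194 in AOS-14, and at the 564 CpGs the medians were 80.5 and 117 reads.

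The RefSeq gene table (GRCm38.p6) gives no strand, so windows of 1 kb either side of both ends of all genes were tested. The lower coordinate was taken as the protocadherin start. For neighbours and listed genes, the start end followed the strand in a separate promoter annotation where it named the gene. Otherwise the end with clearly more listed CpGs was used, and without such an end the gene was left unresolved. Exon positions were not used: exon body means 1 to 2.5 kb after a start. CpGs needed 10 reads in both libraries and windows 5 CpGs. Fisher's exact test (two-sided) was used per CpG and on summed reads per window, with Benjamini-Hochberg adjustment over the genome and a threshold of 0.05. The direction of a window is that of its mean over CpGs, and summed reads had the other sign in 90 of the 8356 windows called genome-wide, none a protocadherin start. Intervals are exact binomial (95%), and 0 reads allows 3 counts of the total. On simulated reads, summing gave false calls in windows left unchanged, so an exact test stratified by CpG was added. The relation of these calls to depth ratios within a window was not tested. Each CpG was simulated independently, without reads shared between CpGs. It was exact in 20240 windows and approximated in 3.

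Named were the called starts, the 3 highest, 3 lowest and 3 most different starts in each direction, C-type genes, Pcdhb1, the 5 most different CpGs in each direction, the neighbours and examples of the lists. Other named genes, runs and distance bins were chosen after their values were seen. The members and lists were chosen with earlier results of these data known. Sequences were not used here. Software was Python 3.11.15 with matplotlib 3.10.9, numba 0.67.0, scipy 1.17.1, numpy 2.4.6 and pandas 2.3.3.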

Additional observations from a re-analysis of the deposited data

Results flagged for a closer look

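Of the CpGs listed in the region, 810 had under 10 reads in at least 1 library and were left out of the comparisons. Of these, 10 had at least 10 reads in A129-2 and 95 in AOS-14. They still held methylated reads. At gene starts they gave 4.69% of 490 reads in A129-2 and 5.01% of 1018 reads in AOS-14, near the levels of the compared start CpGs. Elsewhere in the intervals they gave 12.5% of 592 reads and 11.4% of 5962 reads, and outside the clusters 16.3% of 160 reads and 28.9% of 343 reads. The 32 genes with no compared start CpG had 14 of 215 start reads methylated in AOS-14 (6.51%) and 3 of 124 in A129-2 (2.42%). Of these, Pcdhb7 alone held 7 of 31 in AOS-14 (6 CpGs listed) and 0 of 3 in A129-2 (1 CpG listed).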

How the results depend on the processing

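All comparisons rest on 1 library per line, and depth limits single CpGs most. No paired analysis was possible because each group has 1 sample. The lower mean of A129-2 held in every class under every alternative run. The difference (A129-2 minus AOS-14, in points) elsewhere in the intervals went from -3.86 to -2.95 with at least 50 reads, -2.76 weighted by reads and -6.22 with starts of 2 kb. Between the exons alone it went from -7.91 to -4.59 with at least 50 reads. Outside the clusters it went from -6.41 to -4.89 weighted and -4.41 without CCGG, and at the starts from -1.32 to -0.299 without CCGG. Start windows called lower numbered 5 of 17, against 3 of 12 with 50 reads and 1 of 14 with windows of 0.5 kb. Without CCGG they were 2 of 13 by either test, and with at least 10 CpGs 3 of 11. By the sign of the mean they were 6 of 18 with 5 reads and 7 of 26 with windows of 2 kb. With at least 3 CpGs they were 6 of 24. With a difference of 10 or 25 points they were 0, and no start mean of the main run passed 11.4%. Genome-wide, windows called in either direction were 8356 of 20243, against 6531 of 16511 with 50 reads and 4736 of 16017 with 0.5 kb. They were 3297 of 16920 without CCGG by Fisher's exact test and 5554 of 15067 with at least 10 CpGs. With 5 reads, 2 kb and at least 3 CpGs they were 8666 of 20857, 13707 of 25901 and 11303 of 25151. The 1 start window called higher became 0 with windows of 0.5 kb, thinned reads and a difference of 10 or 25 points. It was also 0 in the test by CpG with or without CCGG, and 2 with at least 3 CpGs. By the sign of the mean over CpGs it was also 0 with 5 reads and 2 with windows of 2 kb, but by the summed reads that were tested it was 1 in both. Single CpGs called lower went from 34 to 14 without CCGG and 6 at 25 points, and those called higher from 4 to 1 with thinned reads and 0 at 10 or 25 points. The sign of the difference in level turned at Pcdhac2 (-0.382, -0.0788 and -0.880 with 5 reads, 50 reads and 2 kb), Pcdhb1 (1.83 with 5 reads), Pcdhga4 (-0.220 with 5 reads), Pcdhga1 (-0.132 with 2 kb) and Pcdhgb7 (1.31 with 2 kb). It also turned at Pcdhgc3 (0.0904 with 5 reads, 0.108 weighted, 0.188 without CCGG in both tests) and Pcdhgb4 (-0.447, -1.0 and -0.905 with 20 reads, 50 reads and weighting, and -0.292 without CCGG in both tests). The cause was not tested, apart from fewer CpGs or a stricter size.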
